A study of Mus musculus with 7 samples.

Results

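Adding doxycycline (DOX) to mouse embryonic fibroblasts (MEFs) labelled Utx knockout (KO) was measured by 2 arrays, 1 without and 1 with the drug, of the 7 arrays in the series. The members were chosen by the deposited labels alone, V19-OSKM MEF Utx KO no DOX and V19-OSKM MEF Utx KO + DOX. The table measured 13562 genes with a single symbol per row, and 9119 of them exceeded a floor of 7.34 (log2) on at least 1 of the 2 arrays. The floor is the 40th percentile of all values of the table.

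The series profiled embryonic stem cells (ESCs), MEFs with and without DOX, and Nanog KO fibroblasts carrying the reprogramming factors, with 1 Affymetrix array each. Both arrays of the KO pair came from V19-OSKM MEFs labelled Utx -/Y, so the Utx deletion and the OSKM transgene are shared by the pair and only the DOX label differs. The WT pair used beside it came from V19-OSKM MEFs labelled Utx +/Y without and with DOX, and the ESC value quoted is that of WT V6.5 cells. The labels give 1 growth medium, N2B27 with 2i and LIF, for all samples. The sources used here do not give how long DOX was applied, or whether the arrays of a pair came from 1 embryo, clone or culture. With 1 array per condition there are no replicates, so differences are given without p-values and their precision is limited by the number of arrays. In such bulk samples, fewer cells of a type and less RNA per cell cannot be told apart.

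OSKM stands for Oct4 (gene Pou5f1), Sox2, Klf4 and Myc, the transcription factors that turn somatic cells into pluripotent ones when they are expressed together. DOX switches on a transgene of this kind by allowing a DOX-dependent activator to bind its promoter. Fibroblasts that respond lose mesenchymal and extracellular matrix genes and gain epithelial junction genes early, and pluripotency genes such as Nanog come on later. Utx, which the X-linked gene Kdm6a encodes, is a demethylase of lysine 27 of histone H3, whose methylation by Polycomb proteins marks silent genes.

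The gene that checks the genotype label, Kdm6a, read 6.32 without DOX and 7.57 with DOX in the KO pair, against 8.22 and 8.93 in the WT pair. Both KO values lay under both WT values, and the KO value without DOX lay under the floor. The gene that checks the DOX label went against it. Pou5f1 read 11.26 in the library labelled KO without DOX against 5.12 in the library labelled KO with DOX, a difference of -6.14, where the WT pair read 8.19 without and 12.59 with DOX, a difference of 4.40. WT ESCs, in which Pou5f1 is a core pluripotency factor, read 12.14. All directions below are therefore given as labelled, DOX minus no DOX, and each changes sign if the 2 labels of the KO pair are exchanged. Neither reading was chosen here, and "the library labelled KO with DOX" and "the library labelled KO without DOX" name the arrays by their deposited labels.

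Among the other 3 factors, Klf4 read 9.73 without and 8.51 with DOX in the KO pair, a difference of -1.23, against 9.0 and 8.89 in the WT pair. Myc read 10.78 and 10.32, a difference of -0.46, where the WT pair went from 10.99 to 12.21. Sox2 stayed under the floor on both KO arrays, at 5.47 and 5.97, and on both WT arrays, at 5.18 and 5.31. Of the factors, then, only Pou5f1 and Klf4 differed by 2-fold or more in the KO pair, both lower with the DOX label. The sources used here do not say whether the probes for these genes read the transgene as well as the endogenous gene.

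Other genes that bear on the labels were read on the same arrays. Uty, whose product is a Y-encoded relative of Utx, measured 6.95 and 7.61 in the KO pair against 7.34 and 7.55 in the WT pair. Kdm6b, an autosomal H3K27 demethylase, read 9.30 and 9.10 in the KO pair. Eif2s3y, a Y-linked translation initiation factor gene, read 4.46 and 5.42 in the KO pair against 8.28 and 8.56 in the WT pair. Kdm5d, a Y-linked H3K4 demethylase, read 5.49 and 5.51 in the KO pair against 6.93 and 7.39 in the WT pair. Xist, the RNA that coats the inactive X chromosome, read 9.87 and 10.98 in the KO pair and 11.06 and 10.90 in the WT pair. Eif2s3y and Kdm5d were thus under the floor on both KO arrays, whose label names a Y chromosome. Kdm5d was also under it on the WT array without DOX. Xist was above the floor on all 4 MEF arrays, and the label of the WT pair names a Y chromosome too. The array medians were 7.68 without and 7.79 with DOX.

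As labelled, 621 genes were 2-fold or more higher with DOX, 6.81% of the 9119 tested, and 267 were 2-fold or more lower, 2.93%. With the labels exchanged the counts are 267 higher and 621 lower. The higher genes made up 69.9% of the genes past 2-fold, a share that became 56.0% (481 higher, 378 lower) when the array medians were aligned and 57.6% (488 higher, 359 lower) after quantile normalization. The median difference over the tested genes was 0.13, with the central 90% between -0.78 and 1.12. The lower value lay under the floor in 167 of the 267 lower genes and 293 of the 621 higher genes, and folds for these are given as at least the fold from the floor. A log2 difference printed for such a gene is that of the deposited values, and its size is neither a bound nor a measured fold. Counted from the floor, 4 lower genes and 5 higher genes were at least 8-fold apart.

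The 20 genes furthest down in the library labelled KO with DOX differed by -3.22 to -6.14 in their deposited values, led by Pou5f1, and all 20 were under the floor with DOX. Aldh3a1, an aldehyde dehydrogenase abundant in the cornea, read 10.78 without and 4.72 with DOX, at least 10.9-fold lower. In the WT pair Aldh3a1 read 4.84 without and 11.57 with DOX, the opposite order. Shisa3, an inhibitor of Wnt and Fgf receptors, read 10.44 and 5.59, at least 8.60-fold lower, against 5.78 and 7.41 in the WT pair. Apela, a peptide ligand of the apelin receptor that is expressed in ESCs, read 9.23 and 4.49 against 4.41 and 10.08 in the WT pair. Avil, an actin regulator of the villin family, read 10.11 and 5.66 against 5.89 and 9.25.

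Genes of cell adhesion were also among the 20. Itgb4, the integrin subunit of hemidesmosomes, read 10.79 without and 6.93 with DOX in the KO pair, at least 10.9-fold lower, against 6.76 and 12.48 in the WT pair. Podxl, a sialomucin of apical membranes, read 9.68 and 5.73 against 5.73 and 12.40, and Cdh1, E-cadherin, read 9.54 and 5.52 against 5.79 and 11.74. Tgm3, a transglutaminase of hair and epidermis, read 9.63 and 5.40 against 5.61 and 11.65. For each of these 4 genes the library labelled KO without DOX lay between the 2 WT arrays, closer to the WT DOX array. The KO DOX library lay within 0.3 of the WT array without DOX for each, with both values under the floor. Ehf, an ETS transcription factor of epithelia, read 7.95 and 3.99, at least 1.52-fold lower, and Ceacam1, a cell adhesion molecule, read 8.33 and 4.80, at least 1.99-fold lower. Ano1, a calcium-activated chloride channel, was at least 4.36-fold lower, and Vtcn1, an immune checkpoint ligand, at least 1.70-fold lower.

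Of the 20, 15 were 2-fold or more higher with DOX in the WT pair, and Sostdc1 was 2-fold lower there. Sostdc1, a secreted antagonist of BMP and Wnt, read 9.83 without and 6.47 with DOX in the KO pair, while both WT values, 6.14 and 4.33, were under the floor. The rest were within 2-fold in the WT pair. Pllp, a membrane protein of myelin and epithelia, read 9.39 without and 5.27 with DOX in the KO pair but 5.19 and 5.59 in the WT pair. Tac2, the neurokinin B precursor, read 7.71 and 4.36, and Npy2r, a neuropeptide Y receptor, read 7.44 and 4.13, both under the floor on both WT arrays. Ramp3, an accessory protein of calcitonin-type receptors, read 9.61 and 6.40 against 6.59 and 7.43 in the WT pair. Each of these 4 genes was highest in the library labelled KO without DOX among the 4 MEF arrays.

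**Figure D1:**
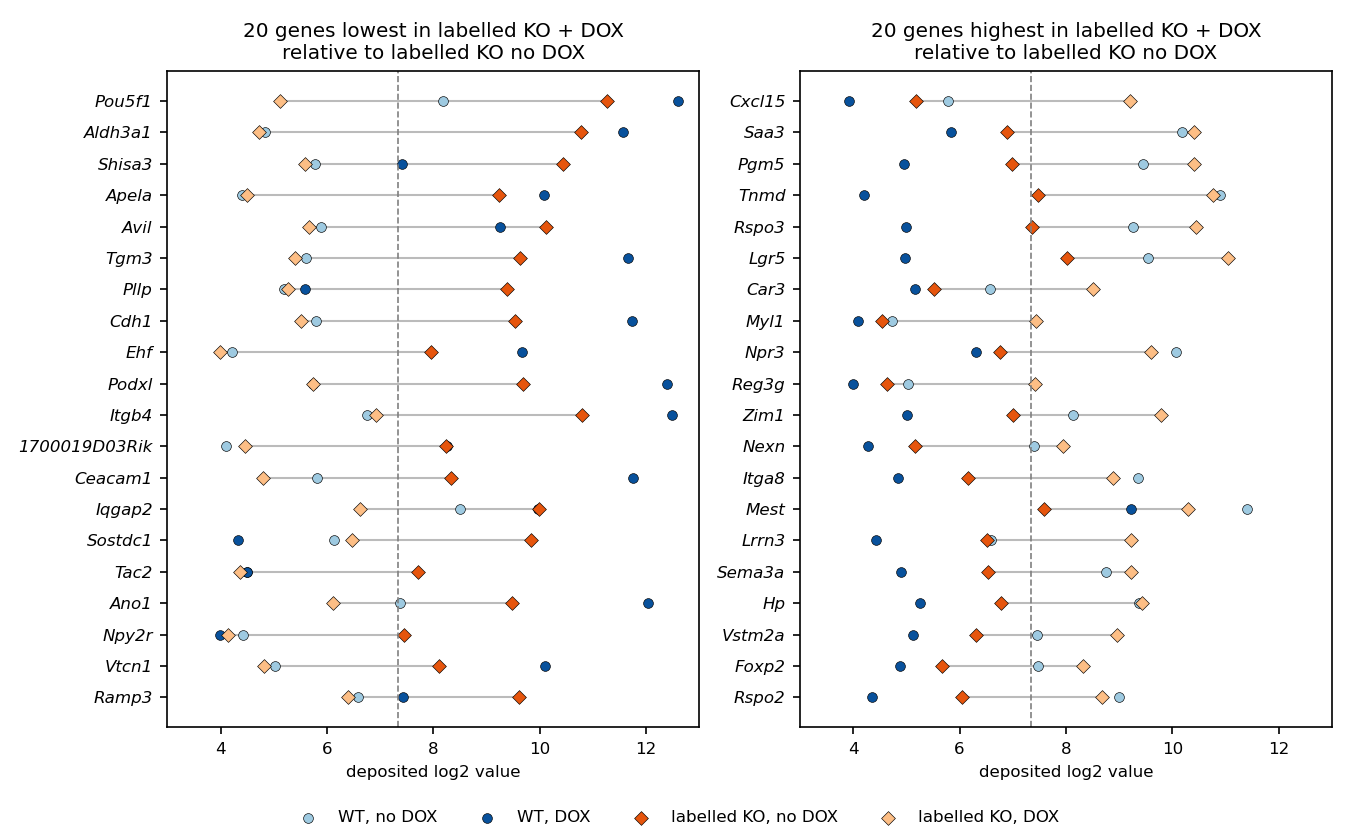
Log2 values of the genes with the largest differences in the KO-labelled pair, lower genes and higher genes, on the 4 MEF arrays (1 array each, so there are no error bars). The 20 lower genes all sit under the floor of 7.34 in the library labelled KO with DOX, and 15 of them are 2-fold or more higher with DOX in the WT pair.

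The 20 genes furthest up in the library labelled KO with DOX differed by 2.63 to 4.03 in their deposited values, and 16 of them were under the floor without DOX. Cxcl15, a chemokine known from lung epithelium, read 5.18 without and 9.21 with DOX, at least 3.66-fold higher, and was under the floor in both WT arrays, at 5.79 and 3.93. Saa3, an acute-phase serum amyloid, read 6.90 and 10.40, at least 8.33-fold higher, against 10.18 and 5.83 in the WT pair. Tnmd, tenomodulin of tendon cells, read 7.48 and 10.76, a 9.74-fold difference, against 10.89 and 4.20. The WT pair had Saa3 and Tnmd in the opposite order, and the library labelled KO with DOX lay within 0.3 of the WT array without DOX for both. Of the 20 genes, 10 were within 2-fold of that WT array, against 96.9% of all tested genes.

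Pgm5, a phosphoglucomutase relative at muscle adhesion sites, read 6.99 and 10.41, at least 8.39-fold higher, against 9.44 and 4.95 in the WT pair. Mest, an imprinted gene of the mesoderm, read 7.58 and 10.29, a 6.57-fold difference, against 11.40 and 9.23. Npr3, the clearance receptor for natriuretic peptides, read 6.75 and 9.60 against 10.07 and 6.30, and Hp, haptoglobin, read 6.77 and 9.43 against 9.37 and 5.26. All 4 ran the opposite way in the WT pair, as did 19 of the 20 by 2-fold or more in their deposited values. Among the 19, Cxcl15, Car3, Reg3g and Lrrn3 were under the floor on both WT arrays. Myl1, a fast skeletal muscle light chain, read 4.55 and 7.43, and Reg3g, an antibacterial lectin, read 4.63 and 7.42, both only just above the floor with DOX and under it on both WT arrays. Nexn, an actin-binding protein of muscle, differed by 2.77, Itga8, an integrin subunit, by 2.73, Sema3a, an axon guidance factor, by 2.7, and the transcription factor Foxp2 by 2.65.

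The promoters of 4 of these genes are shown because they are the 2 furthest genes in each direction that have exactly 1 start site in the table of promoter sequences used. They are the 250 bases before the start site, from RefSeq (GRCm38.p6), written 5′ to 3′ on the gene's strand. Shisa3 is at chr5:67607633-67607882 (+ strand), Apela at chr8:65037337-65037586 (- strand), Cxcl15 at chr5:90794284-90794533 (+ strand) and Saa3 at chr7:46715677-46715926 (- strand). Capitals mark matches to any of 5 motifs searched on both strands.
Shisa3: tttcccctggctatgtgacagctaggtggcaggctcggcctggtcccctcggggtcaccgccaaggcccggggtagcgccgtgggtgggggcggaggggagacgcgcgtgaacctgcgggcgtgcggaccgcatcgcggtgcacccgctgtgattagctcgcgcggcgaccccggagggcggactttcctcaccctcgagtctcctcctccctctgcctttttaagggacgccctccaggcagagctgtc
Apela: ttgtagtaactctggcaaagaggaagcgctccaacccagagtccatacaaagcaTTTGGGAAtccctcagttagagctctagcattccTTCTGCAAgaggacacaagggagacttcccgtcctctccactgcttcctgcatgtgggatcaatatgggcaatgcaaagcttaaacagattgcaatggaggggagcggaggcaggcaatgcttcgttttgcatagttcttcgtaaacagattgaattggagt
Cxcl15: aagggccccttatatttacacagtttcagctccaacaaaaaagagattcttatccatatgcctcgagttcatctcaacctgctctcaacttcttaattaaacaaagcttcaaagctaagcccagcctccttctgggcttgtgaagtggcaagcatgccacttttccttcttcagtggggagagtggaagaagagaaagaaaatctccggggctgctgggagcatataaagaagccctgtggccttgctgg
Saa3: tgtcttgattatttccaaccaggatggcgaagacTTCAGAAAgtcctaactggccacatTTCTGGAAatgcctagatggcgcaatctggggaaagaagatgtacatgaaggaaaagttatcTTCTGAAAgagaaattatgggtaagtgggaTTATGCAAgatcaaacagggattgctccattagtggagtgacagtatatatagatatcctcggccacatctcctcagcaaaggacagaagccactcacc

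The motifs were the octamer bound by Oct4-type factors (ATGCAAAT), the C/EBP type (TTNNGNAA), the AP-1 type (TGANTCA), an E-box (CAGGTG) and an NF-kappaB-type motif, where N is any base. The octamer and the C/EBP type can overlap each other. Saa3 held 4 matches, starting 216, 191, 129 and 99 bases before the start, and Apela held 2, starting 196 and 162 bases before it, all of the C/EBP type. Shisa3 and Cxcl15 held 0 matches, which says only that these letters are not in these windows. Of the 32851 promoter windows in the table, 36.8% held the C/EBP type, 1.60% the octamer, 6.75% the AP-1 type, 17.2% the E-box and 0.356% the NF-kappaB type. Among tested genes with a single start, the C/EBP type was in 27% of 148 lower and 31.3% of 377 higher genes, against 26.1% of all 5865. The E-box was in 26.4% of the lower genes (39 of 148) and 16.2% of the higher genes, against 13.2% of all. The octamer was in 3.38% of the lower and 1.06% of the higher genes against 1.42%, the AP-1 type in 3.38% and 5.31% against 3.38%, and the NF-kappaB type in 0.676% and 0.531% against 0.307%. These shares are a description, with no test.

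As a group, epithelial genes were lower with the DOX label in the KO pair. Of 31 epithelial markers measured, 12 exceeded the floor and the other 19 were under it on both arrays. In their deposited values all 12 were 2-fold or more lower with DOX, where 2.93% of all tested genes were. Except for Perp and the integrin subunit Itga6, they passed the floor only through the library labelled KO without DOX. The floor thus favoured markers that were high there, and the count is a description. Counted from the floor, some were less than 2-fold apart, such as Dsp (at least 1.23-fold) and Krt8 (at least 1.47-fold). Over all 31, the median difference was -0.93 and 30 were below 0, against a median of 0.13 over all tested genes. In the WT pair the same 31 markers had a median difference of 3.69. Beside Cdh1, Ehf and Itgb4, the serine protease St14 read 8.76 without and 6.02 with DOX in the KO pair, and Perp, a desmosomal membrane protein, read 10.14 and 7.52. Both genes were higher in the library labelled KO without DOX, and in the WT pair they were higher with DOX, at 11.60 for St14 and 12.01 for Perp.

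Desmosome, tight junction and keratin genes gave the same order at lower levels. On both KO arrays 5 of 14 cadherin and desmosome genes and 12 of 16 tight junction genes were under the floor. So were 19 of 23 keratin and barrier genes. Dsp, desmoplakin, read 7.64 without and 5.19 with DOX in the KO pair against 5.56 and 11.92 in the WT pair, and Pkp1, plakophilin, differed by -1.82. Of 14 cadherin and desmosome genes, 4 were 2-fold lower and 2 were higher, namely Cdh3, P-cadherin (8.25 and 10.04), and Cdh2, N-cadherin (a difference of 1.24). Cdh1 thus lay on the other side from Cdh2 and Cdh3 within the list. Of 16 tight junction genes, F11r and Cldn3, both tight junction membrane proteins, were 2-fold lower, at -1.33 and -1.23, with a list median of -0.70. Of 23 keratin and barrier genes, 4 were 2-fold lower, with a median of -0.51 against 4.75 in the WT pair. Krt8, a keratin of simple epithelia, read 7.89 and 6.09 in the KO pair and 7.07 and 13.36 in the WT pair, so the library labelled KO without DOX held a small part of the WT level with DOX.

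Regulators of the epithelial and mesenchymal states were split. Grhl3, a grainyhead factor of surface epithelium, read 8.33 without and 5.71 with DOX in the KO pair against 5.72 and 10.49 in the WT pair. Snai2, a repressor of E-cadherin, read 9.13 and 10.45 against 10.13 and 6.38, and Zeb2, another such repressor, differed by 0.93. Over the 18 regulators 9 differences were above 0 and 9 below, with a median of -0.13. Of these regulators 1 was 2-fold higher and 2 were lower, where 6.81% and 2.93% of all tested genes were.

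Most pluripotency genes were under the floor on both arrays of the KO pair. Of 42 measured, 15 exceeded the floor, and 8 of these were 2-fold or more lower and 0 higher in their deposited values. Over all tested genes 2.93% were 2-fold lower. Counted from the floor, Nanog was at least 1.39-fold lower, Gdf3 at least 1.81-fold, L1td1 at least 1.33-fold and Fgf4 at least 1.15-fold. Several, Nanog among them, passed the floor only through the library labelled KO without DOX, where they were high, so the count is a description. The median over all 42 was -0.55 with 36 below 0. Nanog, a core pluripotency factor, read 7.82 without and 5.59 with DOX in the KO pair, 5.43 and 5.48 in the WT pair, and 12.28 in WT ESCs. Nanog was thus above the floor in the library labelled KO without DOX alone of the 4 MEF arrays, and far under the ESC level there. Gdf3, a TGF-beta family ligand of pluripotent cells, followed the same order, at 8.19 and 5.5 against 5.09 and 5.86 in the WT pair. L1td1, an RNA-binding protein of ESCs, read 7.75 and 5.16 against 5.44 and 9.0, and Upp1, a uridine phosphorylase, read 8.64 and 5.43 against 5.63 and 7.91.

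**Figure D2:**
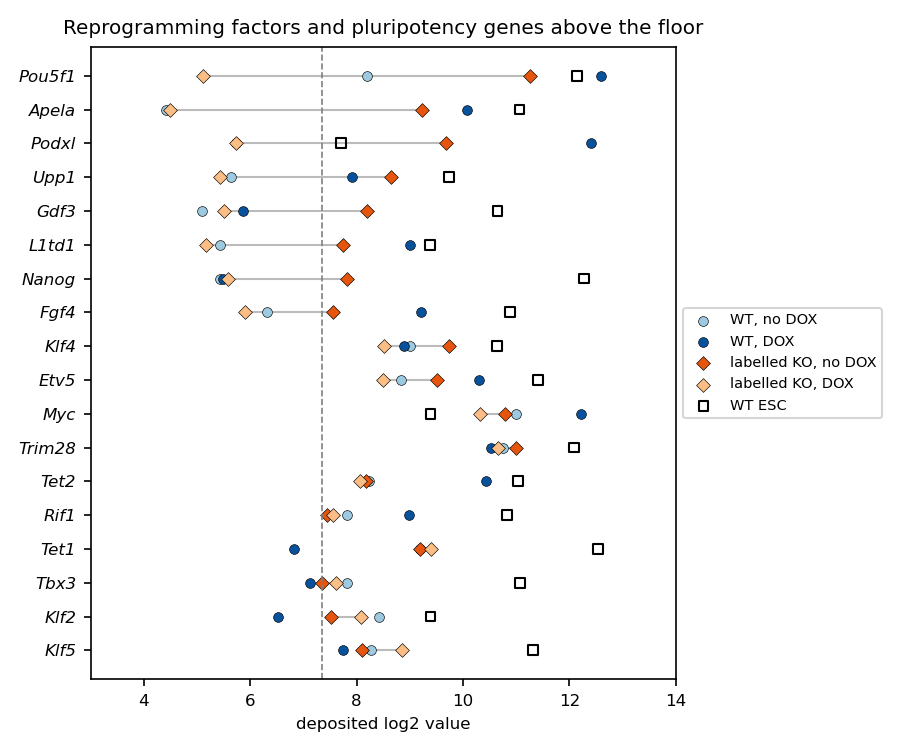
Log2 values of pluripotency genes and reprogramming factors on the 4 MEF arrays and in WT ESCs (1 array each). Nanog lies above the floor of 7.34 in the library labelled KO without DOX (7.82) and under it on the other 3 MEF arrays, while WT ESCs read 12.28.

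Fibroblast markers were high on both arrays of the KO pair. All 12 markers exceeded the floor, their median level was 10.95 without and 11.41 with DOX, and their median difference was 0.48. In the WT pair the median level went from 11.59 without to 7.75 with DOX. Lum, the proteoglycan lumican, was the marker past 2-fold in the KO pair, at 8.85 and 10.72 against 9.82 and 4.23 in the WT pair. Col3a1, a fibrillar collagen, read 10.64 and 11.41 against 11.47 and 6.59, and Dcn, decorin, read 11.31 and 12.20 against 11.85 and 12.13. The MEF label thus had its markers on both KO arrays. The library labelled KO without DOX held them together with 12 of the 31 epithelial markers, and the other 19 were under the floor there.

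Differences of matrix and contractile genes were mostly above 0 with the DOX label in the KO pair. All 33 matrix glycoprotein and proteoglycan genes exceeded the floor. With DOX 14 of them were 2-fold higher and 0 lower, where 6.81% and 2.93% of all tested genes were. The median difference was 0.88 with 32 above 0, against -4.0 in the WT pair. Comp, a cartilage and tendon matrix protein, read 6.76 without and 9.39 with DOX, Abi3bp read 8.58 and 11.09, and Aspn, asporin, read 9.27 and 11.59. With the DOX label each was within 0.5 of the WT array without DOX, whose values were 8.96, 11.05 and 11.70. Of 16 contractile genes of smooth muscle, 9 were 2-fold higher (6 with aligned or quantile-normalized arrays), with a median of 1.02 against -2.61 in the WT pair. Cnn1, calponin, read 9.33 and 11.73 against 12.07 and 5.69, and Myh11, smooth muscle myosin, read 6.57 and 8.88 against 8.84 and 5.56.

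Enzymes that remodel the matrix differed less. Of 25, 8 were 2-fold higher (4 with aligned or quantile-normalized arrays) and 0 lower, with a median of 0.63, led by the matrix metalloproteinases Mmp19, at 8.20 and 9.55, and Mmp13, at 7.04 and 8.36. Of 24 collagens, 2 were 2-fold higher, Col14a1 (8.63 and 10.20) and Col5a2 (8.31 and 9.60), and 1 was lower, Col15a1 (9.40 and 8.00), with a median of 0.34. Of the 24 collagens 19 exceeded the floor, and over all tested genes 6.81% were 2-fold higher and 2.93% lower.

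Among secreted innate immune genes, some members were 2-fold higher with the DOX label and most were not. Of 18 acute-phase and innate secreted genes, 11 exceeded the floor, 8 were 2-fold higher and 0 lower, and the median over the 18 was 0.97 against -1.19 in the WT pair. Lcn2, an iron-scavenging lipocalin, read 7.37 without and 9.60 with DOX against 8.50 and 4.80 in the WT pair. Ptx3, a soluble pattern recognition protein, read 7.99 and 10.17 against 9.71 and 4.24. Among the 4 MEF arrays, both were lowest on the WT DOX array and highest in the library labelled KO with DOX. Of 20 chemokine genes 8 exceeded the floor, 4 were 2-fold higher and Cxcl14 was lower, at 10.56 and 9.21, with a median of 0.32. Cxcl12, a chemokine of stromal cells, read 9.62 and 11.23. Of 18 interferon-stimulated genes 8 exceeded the floor and 2 were 2-fold higher, Usp18 and Oasl2, with a median of 0.81. Of 14 complement and coagulation genes 10 exceeded the floor and 2 were 2-fold higher, C1qb and F3, with a median of 0.80. Of 9 prostaglandin genes 7 exceeded the floor and 2 were 2-fold higher, the receptor Ptgfr (1.86) and the cyclooxygenase Ptgs2 (1.55). Over all tested genes 6.81% were 2-fold higher and 2.93% lower.

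Macrophage markers lay beside these genes. Of 15 measured, 6 exceeded the floor in the KO pair, 5 were 2-fold higher with DOX and 1, Laptm5, was lower (10.12 and 8.77), and 14 of 15 differences were above 0 with a median of 0.89. The median level of the 15 was 5.91 without DOX (range 4.19 to 10.12) and 6.85 with DOX (4.95 to 10.52), against 9.15 (7.5 to 12.06) without and 5.06 (3.58 to 9.46) with DOX in the WT pair. Lyz2, lysozyme, read 9.19 and 10.52 in the KO pair and 12.06 and 4.88 in the WT pair, and Cd68 read 7.73 and 9.25. The defining markers Adgre1, at 5.21 and 6.85, Csf1r, at 5.83 and 6.63, and Ptprc, at 5.24 and 6.09, were under the floor on both KO arrays. The part of macrophage RNA in the innate, complement and chemokine differences was not tested. Of 10 skeletal muscle markers 4 exceeded the floor and 3 were 2-fold higher (2 with aligned or quantile-normalized arrays). Over all 10 the median difference was -0.05, with 5 above 0 and 5 below. Of 6 adipocyte markers 4 exceeded the floor and 3 were 2-fold higher, led by Car3, a carbonic anhydrase of fat and muscle (5.51 and 8.51). Their median over all 6 was 1.02, with 1 below 0. Over all tested genes 6.81% were 2-fold higher and 2.93% lower. Of 6 endothelial markers 1, the receptor Tek, was 2-fold lower, at 9.88 and 6.83, and of 6 neural and Schwann markers Map2 was higher (1.42) and Ngfr lower (-1.34).

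**Figure D3:**
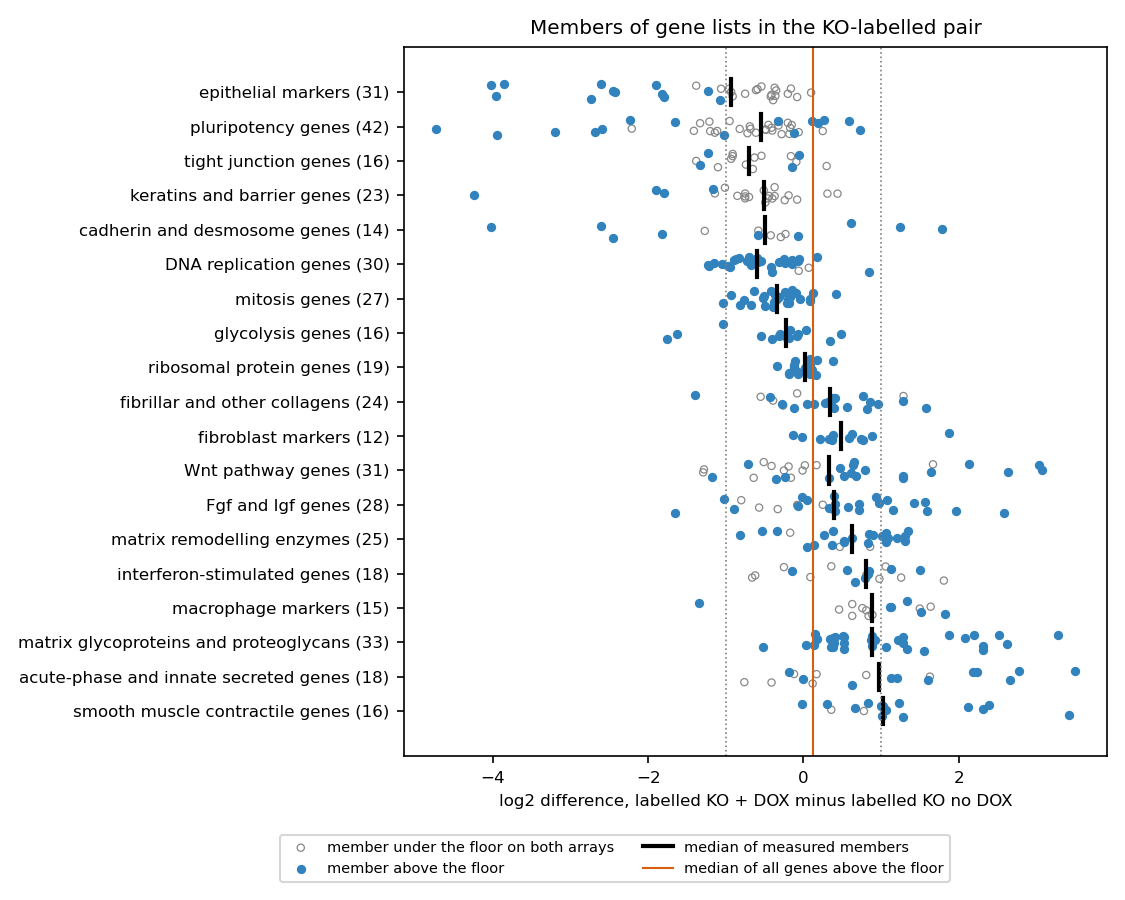
Log2 difference, labelled KO with DOX minus labelled KO without DOX, for each measured member of 19 gene lists (open circles, under the floor on both arrays; filled, above it on at least 1), with the list median as a black bar and the median of all tested genes (0.13) as a line. Epithelial markers lie lowest (median -0.93) and smooth muscle contractile genes highest (1.02), and every sign changes if the 2 labels are exchanged.

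Signalling ligands and receptors were among the larger higher values. Rspo3 and Rspo2, secreted amplifiers of Wnt signalling, read 7.36 and 10.44, and 6.04 and 8.67, and their receptor Lgr5 read 8.02 and 11.05. In the WT pair Rspo3 read 9.25 and 4.99, Rspo2 8.99 and 4.35, and Lgr5 9.55 and 4.97, all in the opposite order. Of 31 Wnt pathway genes 19 exceeded the floor, 7 were 2-fold higher and 1 was lower, with a median of 0.33. Over all tested genes 6.81% were 2-fold higher and 2.93% lower. Igf1, the growth factor, read 7.36 and 9.94 against 9.82 and 5.0, and of 28 Fgf and Igf genes 7 were 2-fold higher and 2 lower, among them Fgf4, a ligand of pluripotent cells (7.55 and 5.90). Of 27 TGF-beta and BMP genes 7 were higher, including the BMP antagonist Grem1 (9.39 and 11.10) and the activin subunit Inhba (9.15 and 10.77), and 1 was lower, Bmp6 (7.80 and 6.40). Nppb, the B-type natriuretic peptide, read 8.16 and 5.45 while its clearance receptor Npr3, above, ran the other way.

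Differences of proliferation genes were mostly below 0 with the DOX label in the KO pair. Of 30 DNA replication genes, 27 differences were below 0, with a median of -0.60, and 4 were 2-fold lower (6 or 7 with other scalings), against a WT median of 0.09. Mcm7, a subunit of the replicative helicase, read 10.70 without and 9.49 with DOX in the KO pair and 8.78 and 9.17 in the WT pair. Ccne1, cyclin E, read 10.99 and 9.76 against 9.09 and 9.03. Both genes were higher on both KO arrays than on either WT MEF array, and highest in the library labelled KO without DOX. Of 27 mitosis genes 1, Bub1b, was 2-fold lower, with a median of -0.34, and of 16 p53 and Ink4 barrier genes 0 were past 2-fold in either direction. Over all tested genes 2.93% were 2-fold lower, and the mitosis count lies near that share.

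Metabolic and stress genes differed for a few members. Aldoc, an aldolase, Slc2a3, a glucose transporter, and Hk2, a hexokinase, were the 3 of 16 glycolysis genes 2-fold lower, at -1.75, -1.63 and -1.03. Gsta4, a glutathione transferase, read 10.40 and 7.68 against 7.84 and 12.26 in the WT pair, the only 1 of 22 NRF2 and glutathione genes past 2-fold. Besides Aldh3a1, 1 of 19 aldehyde dehydrogenase genes was past 2-fold, Aldh1l2 (1.26). Of 27 respiratory chain genes and of 19 ribosomal protein genes 0 were past 2-fold, with medians of -0.10 and 0.02, and of 18 cholesterol synthesis genes 1 was, Insig1 (1.07), which was within 2-fold with aligned or quantile-normalized arrays. Of 17 heat shock and unfolded protein genes 3 were 2-fold higher, led by Dnajb9, a chaperone of the endoplasmic reticulum (a difference of 2.02). Over all tested genes 6.81% were 2-fold higher and 2.93% lower, and the counts of 1 above lie near these shares.

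Developmental and chromatin genes varied in both directions. Of 25 imprinted genes 3 were 2-fold higher and 3 lower, with Zim1, a zinc finger gene, at 7.0 and 9.78 and Peg10, a retrotransposon-derived gene, at 11.92 and 10.12. Of 26 Hox genes 8 exceeded the floor, and 2 of these were 2-fold higher, Hoxd8 and Hoxa5, where 6.81% of all tested genes were. The count of 2 was 0 with aligned medians and 1 after quantile normalization. Of 14 genes of the H3K27 methylation machinery, Kdm6a alone was past 2-fold in its deposited values, by 1.25. Counted from the floor, Kdm6a was at least 1.17-fold higher. Ezh2, the Polycomb methyltransferase, read 10.46 and 10.03, and Ezh1 differed by -0.69.

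The KO pair was then set beside the WT pair, which shares no array with it. Across the genes above the floor in both pairs, 504 were 2-fold or more apart in each, and 479 of these (95%) ran opposite ways as labelled, with 25 running the same way. Exchanging the KO labels turns these into 479 the same way and 25 opposite. Of the 267 genes lower in the KO pair, 141 (52.8%) were 2-fold higher in the WT pair and 17 (6.37%) lower, where 7.13% and 13.6% of all tested genes were. Of the 621 genes higher in the KO pair, 381 (61.4%) were 2-fold lower in the WT pair and 15 (2.42%) higher. Against the WT array without DOX, WT ESCs were 2-fold higher for 112 (41.9%) of the lower genes and 13 (2.09%) of the higher genes, where 10% of all tested genes were. The counts for the 267 and the 621 genes, and the shares of all tested genes, apply the floor in the KO pair only. The difference between the pairs was not tested, since each condition has 1 array.

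**Figure D4:**
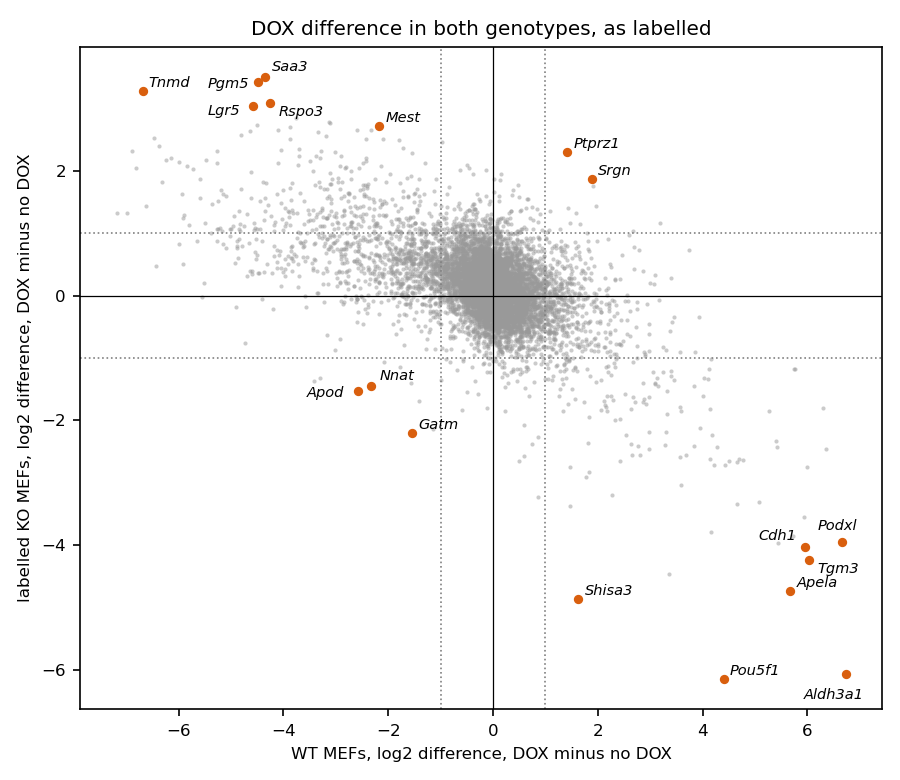
Log2 difference with DOX as labelled in the WT pair (horizontal) and the KO pair (vertical), for genes above the floor in both pairs, with dotted lines at 2-fold and some genes named. Of the genes 2-fold apart in both, 479 lie in the upper left and lower right corners and 25 in the other two.

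Genes 2-fold or more apart in the WT pair mostly differed less in the KO pair. Of 1134 genes above the floor and 2-fold higher with DOX in the WT pair, 646 were above the floor in the KO pair too. With the DOX label 137 (12.1% of the 1134) were above it and 2-fold lower in the KO pair, and 15 (1.32%) 2-fold higher. Of 1304 genes 2-fold lower with DOX in the WT pair, 1158 were above the floor in the KO pair, 342 (26.2% of the 1304) were 2-fold higher there and 10 (0.767%) lower. Without the floor in the KO pair, the counts in the opposite direction were 178 and 373. The shares grew with the size of the WT difference. For genes higher in the WT pair by 1 to 2 on the log2 scale, 6.75% of 622 were above the floor and 2-fold lower with the DOX label in the KO pair, and for those higher by 5 or more, 32.1% of 53 were. For genes lower in the WT pair the shares were 13.7% of 657 at 1 to 2 and 72% of 50 at 5 or more. With the labels exchanged, and genes under the floor in the KO pair included, the KO difference was a median of 15.4% of the WT difference for the WT-higher genes and 30.6% for the WT-lower genes. The genes were chosen by their WT difference, and low values are compressed on arrays. How far either of these sets the shares was not tested.

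**Figure D5:**
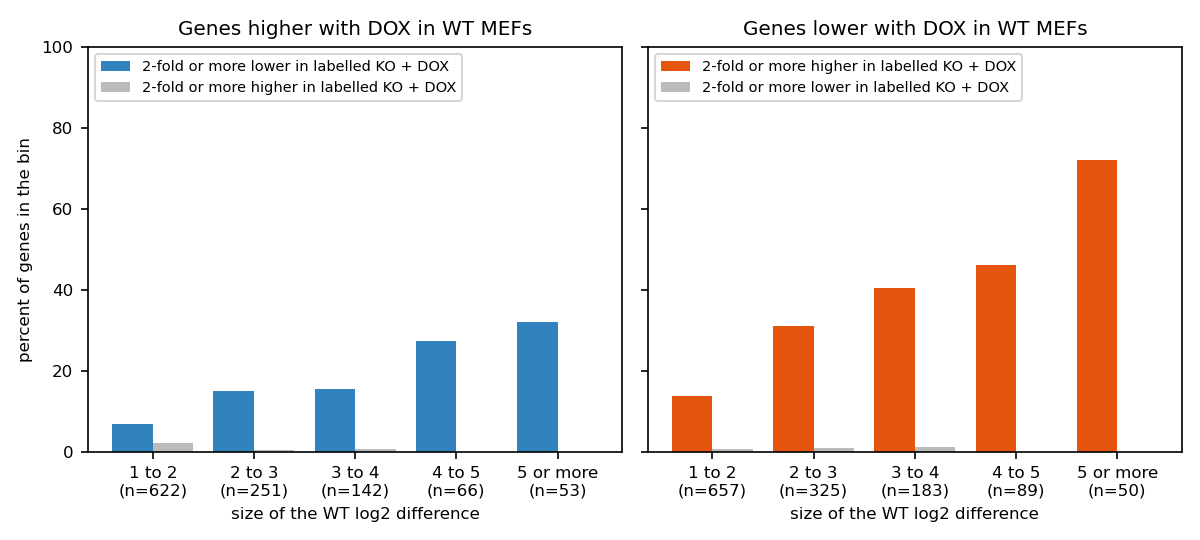
Share of genes above the floor and 2-fold or more apart in the KO pair, against the size of the log2 difference with DOX in the WT pair, for genes higher and genes lower in the WT pair. The share in the opposite direction goes from 6.75% to 32.1% for WT-higher genes and from 13.7% to 72% for WT-lower genes between the smallest and largest WT differences.

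Some genes were 2-fold apart in the KO pair only, 225 higher and 109 lower as labelled, with the WT pair within 2-fold. For these counts the floor was applied in the KO pair only. Trh, thyrotropin-releasing hormone, differed by -2.99 in the KO pair and read 10.76 in WT ESCs, and Myb, a transcription factor of progenitor cells, differed by -3.01. Both were chosen after their values were seen. Nanog and Gdf3, above, belong to the same set on the lower side, and Myl1 and Dnajb9 on the higher side. Whether the KO pair and the WT pair differ at these genes beyond the spread between cultures cannot be told with 1 array each.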

How the data were processed

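The deposited values are on a log2 scale. The submitters' processing notes name Affymetrix Expression Console and the RMA method, which removes background, makes arrays comparable and combines a gene's probes. The sources used here give no software version or genome build. The labels name a kit for 3′ arrays, while the probe IDs belong to a whole-transcript array, and the sources used here do not settle which was used. There were 21811 rows for 7 arrays, with 0 missing values. Of these rows 14894 had 1 gene symbol in the platform annotation, 925 with several symbols were dropped, and 5992 had no entry. A gene with several rows (754 of 13562) was represented by its row of highest mean across the 7 arrays.

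The log2 difference, DOX minus no DOX, was taken per gene. A gene entered the 2-fold counts of a pair if its higher value in that pair passed the floor, unless stated otherwise. The 2-fold counts use the deposited differences, so a counted gene can be less than 2-fold apart when counted from the floor. Where the lower value was under the floor, the fold is given as at least the fold from the floor. The members and the 40 gene lists were chosen with earlier results of these data known, as were the motifs. Named genes are the 20 furthest in each direction, Kdm6a, Kdm6b, Uty, Eif2s3y, Kdm5d, Ddx3y (not measured), Xist, Nanog and the OSKM factors, and up to 5 members per list with the largest differences above the floor, with others as a contrast. Promoter windows came from the RefSeq table of GRCm38.p6. Alternatives covered array scaling, the floor, a 1.5-fold threshold and the mean over a gene's rows. Python 3.11.15 with numpy 2.4.6, pandas 2.3.3 and matplotlib 3.10.9 was used, and the counting was tested on simulated data. With 1 array per condition, the number of arrays limits precision.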

Additional observations from a re-analysis of the deposited data

Results flagged for a closer look

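These values had opposite signs in the KO and WT pairs, as labelled, and the difference between the pairs was not tested. Each pair has 1 array per condition. Pou5f1 differed by -6.14 with DOX in the KO pair and by 4.40 in the WT pair, and 479 genes 2-fold or more apart in both pairs ran opposite ways. List medians were below 0 in the KO pair and above 0 in the WT pair for epithelial markers (-0.93 and 3.69), tight junction genes (-0.70 and 2.23), keratins and barrier genes (-0.51 and 4.75), cadherin and desmosome genes (-0.50 and 3.01), reprogramming factors (-0.84 and 0.67) and natriuretic peptide genes (-0.57 and 0.50). With a floor at the 60th percentile the KO medians of cadherin and desmosome genes and of natriuretic peptide genes were 0.28 and 1.71, and that of natriuretic peptide genes was 0.57 over members above the usual floor. Medians were above 0 in the KO pair and below 0 in the WT pair for matrix glycoproteins and proteoglycans (0.88 and -4.0), macrophage markers (0.89 and -4.03), smooth muscle contractile genes (1.02 and -2.61), adipocyte markers (1.02 and -1.36), acute-phase and innate secreted genes (0.97 and -1.19), interferon-stimulated genes (0.81 and -1.27), complement and coagulation genes (0.80 and -1.87) and matrix remodelling enzymes (0.63 and -2.59). Every KO sign changes if the 2 KO labels are exchanged.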

How the results depend on the processing

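For the 20 genes furthest in each direction and the genes always named, 50 in all, array scaling moved the difference by at most 0.30 (log2). A floor or the mean over rows cannot move these, and 34 of the 50 passed a floor at the 60th percentile. Other list members were not followed singly. Both scalings left all 40 list medians within 0.58 of their value. Over all alternatives 12 list medians moved further and 8 changed sign. A floor at the 60th percentile (8.48) left 388 genes higher, 152 lower and 248 (373 with the usual floor) that were lower in the WT pair and higher in the KO pair. It moved the list medians of epithelial markers to -2.67, keratins and barrier genes to -3.07, endothelial markers to -1.52, skeletal muscle markers to 1.02, adipocyte markers to 3.0 and acute-phase genes to 1.61. It changed the sign of neural and Schwann markers (1.42), cadherin and desmosome genes (0.28), epithelial and EMT regulators (0.69), prostaglandin genes (-0.13) and natriuretic peptide genes (1.71), since fewer members were left. A 1.5-fold threshold gave 1699 genes higher and 725 lower, with 462 higher in the WT pair and lower in the KO pair and 883 the other way. Counts that join both pairs here apply the floor in the WT pair only. With it in the KO pair too, an alternative chosen after seeing the data, they were 137 and 342 at 2-fold. Medians over members above the floor, an alternative chosen after seeing the data, were -2.44 for epithelial markers, -1.85 for keratins and barrier genes, -1.52 for endothelial markers, 1.57 for skeletal muscle markers, 0.97 for chemokine genes and 1.61 for acute-phase genes, with changed signs for epithelial and EMT regulators (0.64), prostaglandin genes (-0.13) and natriuretic peptide genes (0.57).

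No paired analysis was possible because each condition has 1 array. Counts without the doubted libraries could not be made, since the pair consists of them. Signal near background limits the lower side of 167 of the 267 lower genes and 293 of the 621 higher genes, and for these the fold from the floor is the lower bound.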

Other observations

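Of the 504 genes 2-fold or more apart in both pairs, 25 ran the same way as labelled, 15 higher and 10 lower. The genes named here were chosen after their values were seen. Srgn, a proteoglycan of secretory granules, was higher with the DOX label by 1.87 in the KO pair and 1.89 in the WT pair. Cdsn, an adhesion protein of cornified epidermis, was higher by 1.76 and 1.91, and Ptprz1, a receptor phosphatase, by 2.30 and 1.42. In the KO pair Ptprz1 read 5.13 without and 7.43 with DOX, only just above the floor, so it was at least 1.06-fold higher. Gatm, an enzyme of creatine synthesis, was lower by 2.20 and 1.54, Apod, an apolipoprotein, by 1.53 and 2.57, and Nnat, an imprinted gene of neural tissue, by 1.45 and 2.33. With the KO labels exchanged these genes run opposite ways in the pairs.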
